A study of Mus musculus with 6 samples.

Results

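The 46 genes described here encode the digestive apparatus of the lysosome and its proton pump, and they were taken by gene symbol from 54232 genes in the deposited files. They are 22 hydrolases and cofactors, 7 lysosomal membrane proteins, 3 transcription factors of the MiT/TFE family, and 14 genes of the vacuolar ATPase (V-ATPase). All 46 symbols were found, and all 46 passed the filter on low counts and were tested among 11254 genes. RNA-seq was performed on inflammatory monocytes (GFP-CD45+CD11b+Ly6ChiLy6G-) sorted from the CNS of mice with EAE, a model of multiple sclerosis in which immunization with a myelin peptide brings T cells and monocytes into the CNS. Lethally irradiated GFP+ mice had received WT (CD45.1) and Ifnar1-/- (CD45.2) BM cells in equal parts, were immunized 6 to 7 weeks later, were given 30000 IU of rIFN-β daily, and were sampled at disease peak. There were 3 libraries of WT and 3 of Ifnar1-/- monocytes. Both groups therefore carried the same irradiation, immunization, and rIFN-β treatment, and they differed in the IFN-β receptor gene and in the CD45 allele of the donor. No library from mice without rIFN-β is part of this comparison, so it addresses what a working receptor in the monocyte adds when all animals are treated.

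Lysosomes are the acidic compartments in which phagocytes degrade engulfed cells, myelin, and their own worn organelles. Soluble hydrolases digest sugars, sulfated glycans, lipids, and proteins, highly glycosylated membrane proteins such as LAMP1 line the organelle, and the V-ATPase acidifies it by coupling ATP hydrolysis in its cytosolic V1 sector to proton transfer through its membrane-embedded V0 sector. TFEB, TFE3, and MITF are basic helix-loop-helix leucine zipper factors that bind E-boxes in the promoters of many lysosomal genes and are known for raising them together under starvation or lysosomal stress.

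Libraries held 4531782 to 7321380 expected counts, and 240 genes were called in the whole comparison, meaning an adjusted p of at most 0.05 (edgeR quasi-likelihood test, Benjamini-Hochberg) with a fold change of at least 1.5. Levels are given in normalized CPM, counts divided by the TMM-adjusted library size and scaled to CPM. *Ifnar1* itself (chromosome 16) had 153, 126, and 111 normalized CPM in WT and 110, 102, and 109 in Ifnar1-/- libraries. Every WT library lay above every Ifnar1-/- library, by a narrow margin, and the gene was not called (log2 fold change 0.28, adjusted p = 0.360, edgeR). The count over the whole gene therefore does not mark the genotypes clearly. *Irf7*, an IFN-inducible transcription factor, averaged 509 normalized CPM in WT and 30.1 in Ifnar1-/- monocytes, with adjusted p = 1.64e-05. Monocyte markers were abundant in every library, with summed levels over 10 genes of 13886 to 14427 normalized CPM in WT and 15654 to 16370 in Ifnar1-/- monocytes. These ranges did not overlap, with WT lower. Of the 10, *Ly6c2*, encoding the antigen Ly6C used in the sort, was called higher in WT (log2 fold change 1.40, adjusted p = 0.00957, edgeR), and 0 were called lower. In 3 of the 10 every WT library lay above every Ifnar1-/- library, and in 1, *Ccr2*, every WT library lay below (11.1% and 12.2% of all tested genes). The log2 fold change of *Ccr2* was -0.62 (adjusted p = 0.143, edgeR). WT replicate 1 stood apart in 7SL RNA, an abundant noncoding RNA of the signal recognition particle, which took 4.89% of its counts against 1.28% to 2.26% elsewhere. The study's legend gives 3 recipient mice and the labels do not tie libraries to animals, so p-values measure the spread between these libraries.

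None of the 46 lysosomal genes was called by edgeR, either higher or lower in WT monocytes, against 1.67% of all tested genes called higher and 0.462% called lower. At an unadjusted p of at most 0.05, 10 members were higher in WT and 0 were lower, where the same threshold held 9.69% and 8.14% of all tested genes. DESeq2 called 1 member higher, *Lgmn*, and 0 lower (2.87% and 0.959% of genes with a DESeq2 adjusted p), and limma-voom called 0 in either direction. All 10 members at the unadjusted threshold were hydrolases, cofactors, membrane proteins, or *Tfe3*, and none was a V-ATPase gene. The 32 genes outside the V-ATPase had a median log2 fold change (WT over Ifnar1-/-) of 0.30, with 25 above 0 and 7 below, while the 14 V-ATPase genes had a median of -0.05, with 6 above 0 and 8 below. Over all tested genes the median was -0.01 and 48.2% were above 0.

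**Figure D1:**
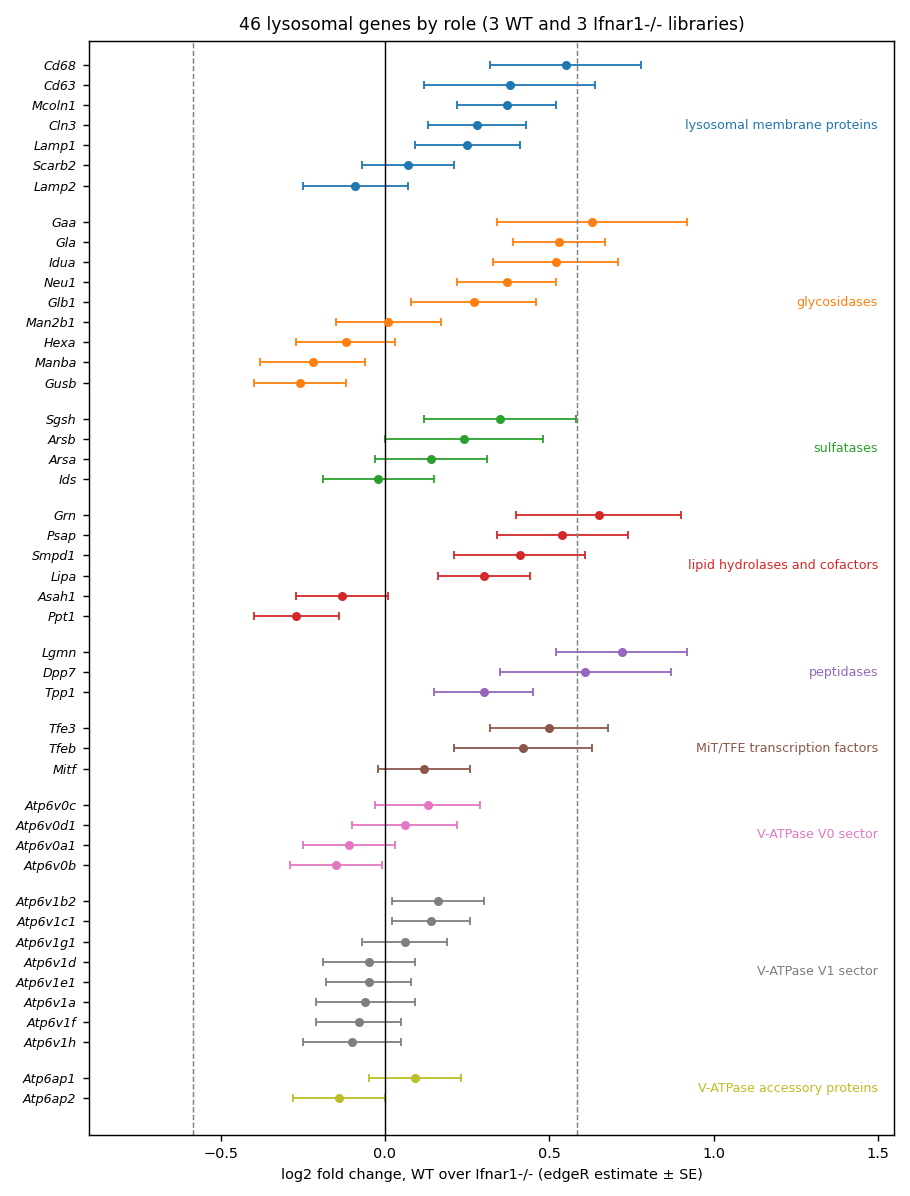
Log2 fold change of each of the 46 genes (WT over Ifnar1-/-, edgeR estimate with its SE as bars, 3 libraries a group), grouped by role. Dashed lines mark a fold change of 1.5. Estimates outside the V-ATPase spread from -0.27 to 0.72, and those of the V-ATPase lie between -0.15 and 0.16.

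In 15 members every WT library lay above every Ifnar1-/- library, and in 2 every WT library lay below (11.1% and 12.2% of all tested genes). Of the 15, 13 were outside the V-ATPase and 2, *Atp6v1b2* and *Atp6v1c1*, were V-ATPase genes. The 2 in the other direction were *Gusb* and *Ppt1*.

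Among the lysosomal peptidases, *Lgmn* had the smallest adjusted p. It encodes legumain, an endopeptidase that cuts after asparagine and takes part in processing of other lysosomal proteases and of antigens. *Lgmn* had 558, 382, and 330 normalized CPM in WT and 242, 268, and 260 in Ifnar1-/- libraries. The groups did not overlap, and WT replicate 1 was the highest library. This gave a log2 fold change of 0.72 (SE 0.20), with an adjusted p of 0.101 from edgeR and 0.0135 from DESeq2. Without WT replicate 1 the estimate was 0.48. *Dpp7*, a dipeptidyl peptidase, was far less abundant, with 17.8, 10.2, and 11.1 normalized CPM in WT and 7.18, 10.0, and 8.64 in Ifnar1-/- libraries. Here WT replicate 1 stood well above the other libraries, and the groups were separated by a narrow margin (log2 fold change 0.61, SE 0.26, adjusted p = 0.252, and 0.32 without that library). *Tpp1*, which removes tripeptides from protein ends, had a log2 fold change of 0.30 (95% interval -0.03 to 0.62).

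The 9 glycosidases, which trim sugar chains from glycoproteins, glycolipids, and glycosaminoglycans, had a median log2 fold change of 0.27. *Gla*, the galactosidase that removes terminal alpha-galactose from glycolipids, had the smallest unadjusted p of all members (0.00306). *Gla* had 79.97, 72.26, and 69.30 normalized CPM in WT and 46.27, 50.67, and 56.27 in Ifnar1-/- libraries. The groups were clearly apart, and no library decided the difference, since the log2 fold change of 0.53 (SE 0.14, adjusted p = 0.0863 with edgeR) ranged from 0.48 to 0.63 as each library was left out. With DESeq2 the adjusted p of *Gla* was 0.0477, at a fold change below 1.5. *Idua*, an iduronidase of glycosaminoglycan breakdown, had 21.91, 17.64, and 16.19 normalized CPM in WT and 11.61, 13.39, and 13.98 in Ifnar1-/- libraries. The groups of *Idua* did not overlap (log2 fold change 0.52, SE 0.19, adjusted p = 0.187, edgeR).

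*Neu1*, the lysosomal sialidase, had 73.6, 58.0, and 72.5 normalized CPM in WT and 47.5, 52.7, and 57.6 in Ifnar1-/- libraries. WT replicate 2 of *Neu1* lay next to Ifnar1-/- replicate 3 (log2 fold change 0.37, SE 0.15, adjusted p = 0.226). *Gaa*, the acid glucosidase that degrades lysosomal glycogen, had 85.4, 42.7, and 46.6 normalized CPM in WT and 26.4, 49.8, and 37.1 in Ifnar1-/- libraries. WT replicate 1 alone was high in *Gaa*, and the other 2 WT libraries lay within the range of Ifnar1-/- monocytes. The estimate for *Gaa* on the log2 scale, 0.63 (SE 0.29, adjusted p = 0.284), was 0.25 without WT replicate 1. *Glb1*, the beta-galactosidase, had a log2 fold change of 0.27, and *Man2b1*, an alpha-mannosidase, of 0.01. The remaining glycosidases were on the other side of 0, with -0.12 for *Hexa* (beta-hexosaminidase subunit alpha), -0.22 for *Manba* (beta-mannosidase), and -0.26 for *Gusb* (beta-glucuronidase, 95% interval -0.57 to 0.04). The 4 sulfatases, which remove sulfate from glycans and sulfatide, had log2 fold changes of 0.35 (*Sgsh*), 0.24 (*Arsb*), 0.14 (*Arsa*), and -0.02 (*Ids*), with adjusted p from 0.454 to 0.969.

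**Figure D2:**
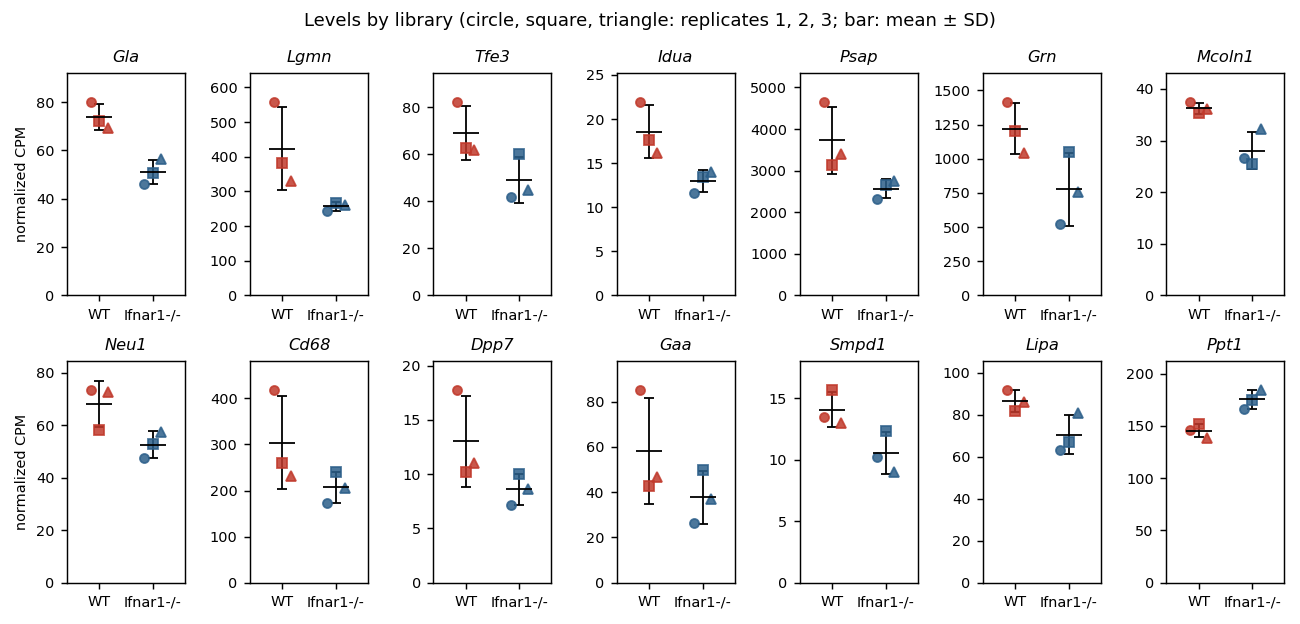
Normalized CPM in each library of the 14 members with the smallest p, in order of p from *Gla* to *Ppt1* (red, WT; blue, Ifnar1-/-; bars, mean ± SD, n = 3; each axis starts at 0). WT replicate 1, the red circle, is the highest library for 12 of these genes, and *Ppt1* is higher in all Ifnar1-/- libraries.

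Of the lipid hydrolases and their cofactors, *Psap* and *Grn* were the most abundant. *Psap* encodes prosaposin, the precursor of the saposins that present sphingolipids to hydrolases. *Psap* had 4646, 3140, and 3397 normalized CPM in WT and 2309, 2645, and 2740 in Ifnar1-/- libraries. The groups did not overlap (log2 fold change 0.54, SE 0.20, adjusted p = 0.200 with edgeR and 0.0543 with DESeq2), and the difference was 0.36 without WT replicate 1. *Grn* encodes progranulin, a secreted and lysosomal glycoprotein that travels with prosaposin. *Grn* had 1413, 1199, and 1042 normalized CPM in WT and 519, 1051, and 758 in Ifnar1-/- libraries. Its groups overlapped, with Ifnar1-/- replicate 2 at the level of WT replicate 3 and Ifnar1-/- replicate 1 lowest (log2 fold change 0.65, SE 0.25, adjusted p = 0.204).

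*Smpd1*, the acid sphingomyelinase, was low, with 13.5, 15.7, and 13.0 normalized CPM in WT and 10.2, 12.4, and 9.01 in Ifnar1-/- libraries. The separation of its groups was small (log2 fold change 0.41, 95% interval -0.03 to 0.86). *Lipa*, the acid lipase of cholesteryl esters and triglycerides, had 92.1, 81.6, and 86.3 normalized CPM in WT and 63.2, 67.3, and 81.1 in Ifnar1-/- libraries. The groups of *Lipa* nearly touched (log2 fold change 0.30, 95% interval -0.02 to 0.62). *Ppt1*, a thioesterase that removes palmitate from proteins, went the other way, with 146, 152, and 139 normalized CPM in WT and 166, 175, and 185 in Ifnar1-/- libraries. All 3 WT libraries of *Ppt1* lay below the other group (log2 fold change -0.27, SE 0.13, adjusted p = 0.311). *Asah1*, the acid ceramidase, had a log2 fold change of -0.13.

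Of the 7 lysosomal membrane proteins, 6 had log2 fold changes above 0. *Cd68*, a heavily glycosylated LAMP-family protein of macrophages, had 419, 259, and 232 normalized CPM in WT and 173, 241, and 206 in Ifnar1-/- libraries. The groups of *Cd68* overlapped and WT replicate 1 was by far the highest (log2 fold change 0.55, SE 0.23, adjusted p = 0.240, and 0.26 without that library). *Mcoln1*, the calcium channel mucolipin 1, had 37.4, 35.3, and 36.1 normalized CPM in WT and 26.6, 25.4, and 32.2 in Ifnar1-/- libraries. The 3 WT libraries of *Mcoln1* were close together and above the other group (log2 fold change 0.37, SE 0.15, adjusted p = 0.226), and the estimate was 0.36 without WT replicate 1.

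*Lamp1*, the major lysosomal membrane glycoprotein, had 825, 670, and 658 normalized CPM in WT and 576, 633, and 597 in Ifnar1-/- libraries (log2 fold change 0.25, 95% interval -0.09 to 0.60). *Lamp2*, its relative with a role in chaperone-mediated autophagy, had 476, 523, and 452 in WT and 591, 427, and 526 in Ifnar1-/- libraries. *Lamp1* libraries did not overlap between groups, whereas *Lamp2* libraries were intermixed (log2 fold change -0.09, 95% interval -0.45 to 0.28). *Cln3*, a multipass membrane protein, had a log2 fold change of 0.28, *Cd63*, a tetraspanin of late endosomes and granules, of 0.38, and *Scarb2*, the receptor that carries glucocerebrosidase to lysosomes, of 0.07.

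The 3 MiT/TFE transcription factors had log2 fold changes of 0.50 (*Tfe3*), 0.42 (*Tfeb*), and 0.12 (*Mitf*). *Tfe3* had 82.1, 62.7, and 61.8 normalized CPM in WT and 41.7, 60.0, and 44.9 in Ifnar1-/- libraries. The groups of *Tfe3* were narrowly apart (SE 0.18, adjusted p = 0.186, edgeR). *Tfeb* had 30.0, 23.4, and 23.1 in WT and 15.9, 16.8, and 25.0 in Ifnar1-/- libraries, and *Mitf* had 122, 101, and 98.7 in WT and 106, 92.9, and 96.5. Libraries of *Tfeb* and of *Mitf* overlapped between groups (adjusted p = 0.332 and 0.696). mRNA levels of these factors do not report their activity, which is set largely by phosphorylation and nuclear entry.

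The V-ATPase genes were measured more evenly than the other members, with a median SD within groups of 0.132 on the log2 scale of normalized CPM against 0.183. Their 95% intervals for the log2 fold change all lay between -0.47 and 0.49, inside the 0.585 that a fold change of 1.5 corresponds to. *Atp6v0c*, the proteolipid of the rotating membrane ring, had 641, 598, and 482 normalized CPM in WT and 502, 574, and 494 in Ifnar1-/- libraries. *Atp6v1e1*, a peripheral stalk subunit, had 117, 120, and 124 in WT and 129, 116, and 127 in Ifnar1-/- libraries. Libraries of both genes were intermixed between groups, with log2 fold changes of 0.13 (SE 0.16) and -0.05 (SE 0.13). Among the V-ATPase genes the estimate with the largest size was that of *Atp6v1b2*, a subunit of the catalytic head, at 0.16 (adjusted p = 0.601).

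The V0 sector genes had log2 fold changes from -0.15 (*Atp6v0b*) to 0.13 and the V1 sector genes from -0.10 (*Atp6v1h*) to 0.16. Between these lay *Atp6v0a1* (-0.11) and *Atp6v0d1* (0.06) of V0. In V1 the values were -0.06 for *Atp6v1a*, the ATP-hydrolyzing subunit, 0.14 for *Atp6v1c1*, -0.05 for *Atp6v1d*, -0.08 for *Atp6v1f*, and 0.06 for *Atp6v1g1*. The accessory genes *Atp6ap1* and *Atp6ap2* had 0.09 and -0.14.

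Members differed in level far more than the genotypes did. Per kb of effective length, the mean over 6 libraries ran from 3.86 normalized CPM for *Arsb* to 1282 for *Psap*. *Psap* had 1519 ± 328 normalized CPM per kb in WT and 1045 ± 92.4 in Ifnar1-/- monocytes (SD, n = 3). *Atp6v0c* followed with 631 ± 90.1 and 576 ± 48.5, and *Grn* with 601 ± 92.0 and 383 ± 132, so that these neighbours in WT monocytes did not differ beyond their spread. *Lamp1* had 354 ± 45.8 and 296 ± 14.4 on this scale. All 4 sulfatases were among the members of lowest level, between 3.86 and 9.37 normalized CPM per kb. V-ATPase genes other than *Atp6v0c* lay closer together, from 26.4 (*Atp6v1d*) to 134 (*Atp6v1e1*).

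**Figure D3:**
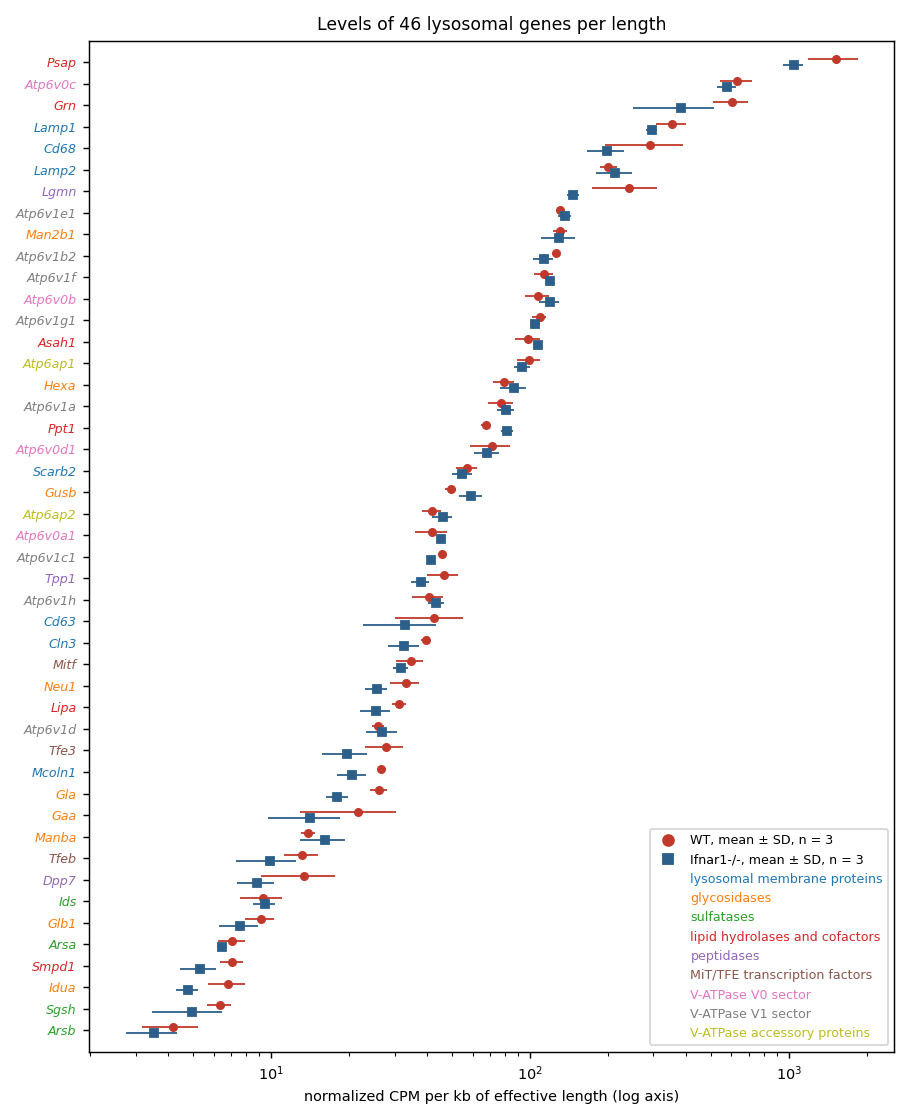
Normalized CPM per kb of effective length (log axis) of the 46 genes, ordered by their mean over 6 libraries (circles, WT; squares, Ifnar1-/-; bars, SD, n = 3; gene names are coloured by role). *Psap* is highest and *Arsb* lowest, and the distance between genes exceeds that between genotypes.

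Together the 46 genes took 1.00% to 1.26% of the TMM-adjusted library size in WT and 0.821% to 0.917% in Ifnar1-/- libraries. *Psap* held 30.6% to 36.9% of the members' sum in WT and 28.1% to 29.9% in Ifnar1-/- libraries. The 14 V-ATPase genes summed to 1884 to 2143 normalized CPM in WT and 1963 to 2010 in Ifnar1-/- libraries, ranges that overlap. The other 32 summed to 8120 to 10498 in WT and 6199 to 7212 in Ifnar1-/- libraries, ranges that do not. That sum leans on its most abundant genes, *Psap* and *Grn*. *Psap* had 3140 to 4646 in WT and 2309 to 2740 in Ifnar1-/- libraries, and *Grn* had 1042 to 1413 and 519 to 1051.

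The difference outside the V-ATPase was carried unevenly by the libraries. Of these 32 genes, 20 had their highest level in WT replicate 1 and 17 had their lowest in Ifnar1-/- replicate 1. The same libraries were at the ends of RNA composition. Mitochondrial rRNA took 12.3% of counts in WT replicate 1 and 22.7% in Ifnar1-/- replicate 1, and 14.2% to 19.6% in the other 4, while protein-coding genes took 74.9% and 66.4%, and 69.3% to 73.7% in the other 4. With mitochondrial and ribosomal RNA genes left out of the fit, the median log2 fold change of the 32 genes was 0.31, and the part of RNA quality in the result was not tested. The median deviation from the gene's own mean was 0.25 in WT replicate 1, 0.05 in WT replicate 2, and 0.06 in WT replicate 3 on the log2 scale, and -0.26, -0.09, and -0.01 in the Ifnar1-/- libraries. Without WT replicate 1 the median log2 fold change of the 32 genes was 0.26, with 24 above 0. V-ATPase genes showed no such order, with medians from -0.09 (WT replicate 3) to 0.06 (WT replicate 2).

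**Figure D4:**
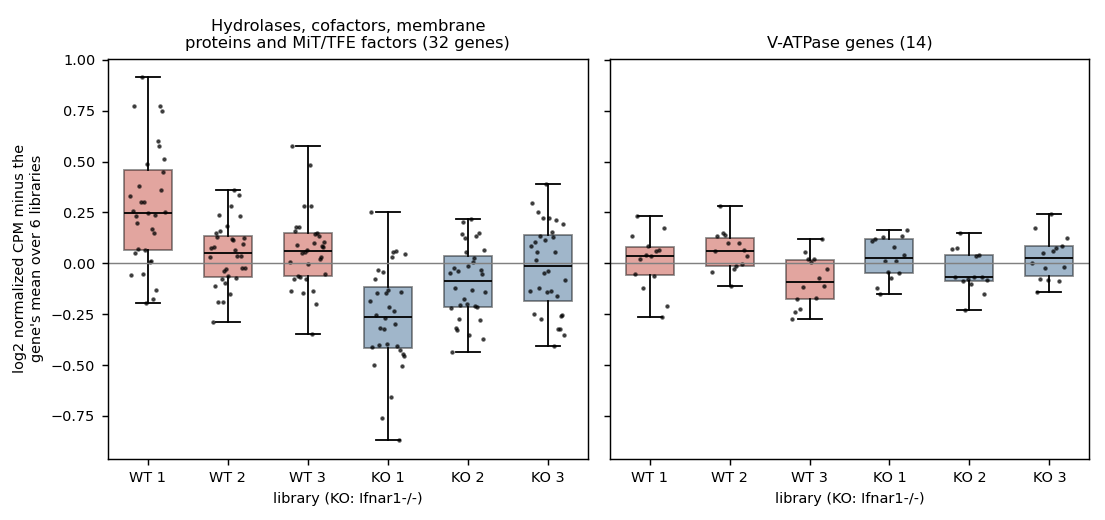
Deviation of each gene's log2 normalized CPM from its mean over 6 libraries, for the 32 genes outside the V-ATPase and for the 14 V-ATPase genes (points, genes; boxes, quartiles and median; whiskers, full range; red, WT; blue, Ifnar1-/-, written KO). Outside the V-ATPase the median is highest in WT replicate 1 (0.25) and lowest in Ifnar1-/- replicate 1 (-0.26).

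The 5 members with the largest spread within groups were *Gaa*, *Cd63*, *Grn*, *Cd68*, and *Dpp7*, with SDs of 0.498, 0.426, 0.392, 0.362, and 0.336 on the log2 scale. *Cd63* had 38.7, 26.4, and 48.4 normalized CPM in WT and 24.1, 23.7, and 39.7 in Ifnar1-/- libraries. The libraries with the number 3 were highest for *Cd63* in both groups. Neutrophil markers were high in the same libraries, with summed levels over 11 genes of 2387 and 2787 normalized CPM in WT and Ifnar1-/- replicate 3 against 358 to 1068 in the other 4. *Ly6g*, the neutrophil antigen gated out in the sort, was at 0 to 0.790 normalized CPM, and the part of these cells or transcripts in the result for *Cd63* was not tested.

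Other cell type markers also moved with the groups or with WT replicate 1. In bulk libraries a change in the share of a cell type and a change in level per cell cannot be told apart. Mature macrophage markers summed to 3713 normalized CPM in WT replicate 1 and to 1361 in Ifnar1-/- replicate 1, the highest and lowest libraries. They summed to 1841 to 2460 in the other 4, and *Apoe* was the largest single part in every library. Among these 8 markers, *Gpnmb*, a membrane glycoprotein of lipid-laden macrophages, was called higher in WT (log2 fold change 1.72, adjusted p = 0.0128, edgeR). The other 7 were not called. Of those 7, *Mrc1* went the other way, with every WT library below every Ifnar1-/- library (log2 fold change -0.79, adjusted p = 0.0610, edgeR). *C1qa*, *C1qb*, *C1qc*, and *Adgre1* also had log2 fold changes below 0 (-0.42, -0.10, -0.14, and -0.07). Those of *Mertk* and *Apoe* were 0.48 and 0.65. T cell markers were low but summed higher in WT (98.0 to 133 normalized CPM over 10 genes) than in Ifnar1-/- libraries (49.3 to 57.3), and none was called. Most of these sums came from *Il7r*. Without it they were 22.3 to 52.3 in WT and 9.66 to 22.4 in Ifnar1-/- libraries. These ranges overlapped only in WT replicate 2 (22.3) and Ifnar1-/- replicate 1 (22.4). Of the 9 tested T cell markers, *Il7r* among them, 6 had every WT library above every Ifnar1-/- library and 0 had every WT library below (11.1% and 12.2% of all tested genes). B cell markers summed to 2.29 to 11.7 normalized CPM with *Pax5* at 0, neural markers to 44.6 to 61.5 with *Mog* and *Rbfox3* at 0, microglial markers to 36.5 to 46.5, and dendritic cell markers to 113 to 216. Their part in the lysosomal differences was not tested.

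The base composition of the transcripts moved with the fold changes. Over 11242 tested genes with a known GC content, log2 fold change and GC content had a Spearman correlation of 0.368, and over the 46 members of 0.481 (a description across genes, which share libraries and are not independent). Median GC content was 53.2% in the 32 genes outside the V-ATPase, 49.0% in the V-ATPase genes, and 50.0% in all tested genes. With offsets for GC content and length fitted in each library, the median log2 fold change became 0.19 for the 32 genes and 0.05 for the V-ATPase genes, and 0 members were called. *Tfeb*, with 61.6% GC the richest member, went from 0.42 to 0.07, and *Gaa* (58.9%) from 0.63 to 0.33. *Lgmn* (50.4%) and *Gla* (48.4%), the members with the smallest p, had 0.73 and 0.53 with the offsets.

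**Figure D5:**
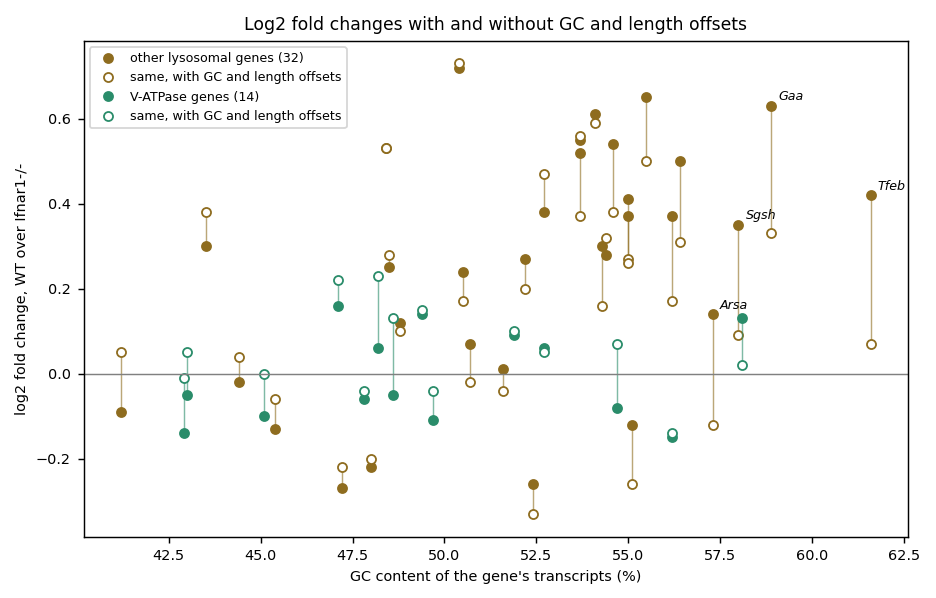
Log2 fold change (WT over Ifnar1-/-) of each member against the mean GC content of its transcripts, as fitted (filled) and with offsets for GC content and length (open), joined by lines (brown, 32 genes outside the V-ATPase; green, 14 V-ATPase genes). Named genes moved by more than 0.2; *Tfeb* moved from 0.42 to 0.07.

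Promoters of the members are shown because MiT/TFE factors bind the E-box CACGTG, and 13 of the 41 members with a RefSeq promoter window held it (31.7%, against 8.09% of 27025 genes). Windows ran from 250 bases before to 50 bases after the start site. The 27025 genes were not limited to the 11254 that passed the filter on low counts, whereas all 41 members passed it. How far this moves the shares was not tested. The longer palindrome TCACGTGA, which contains the E-box, was in 6 of the 41 (*Atp6v0d1*, *Atp6v1a*, *Cln3*, *Dpp7*, *Gla*, and *Mcoln1*) and in 1.12% of genes. The core of IFN-stimulated response elements, TTTC followed after any 2 bases by TTTC, searched on both strands, was in *Lamp1* and *Atp6v1d* and in 3.99% of genes. The E-box was in 3 of 10 V-ATPase genes and 10 of 31 others, and the median log2 fold change was 0.28 for the 13 genes with it and 0.11 for the 28 without it. A match is a description of the sequence and not a bound site. Stretches around the E-boxes (capitals) of the 6 named members that hold it follow, 5′ to 3′ on the strand of the gene, from RefSeq on GRCm38.p6.
Lamp1, chr8:13159078-13159160, plus strand: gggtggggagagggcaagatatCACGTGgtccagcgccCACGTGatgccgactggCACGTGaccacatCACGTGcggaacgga
Mcoln1, chr8:3500426-3500501, plus strand: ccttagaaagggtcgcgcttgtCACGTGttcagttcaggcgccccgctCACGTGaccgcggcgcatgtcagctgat
Dpp7, chr2:25356378-25356427, minus strand: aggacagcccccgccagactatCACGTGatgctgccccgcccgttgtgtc
Lgmn, chr12:102439114-102439163, minus strand: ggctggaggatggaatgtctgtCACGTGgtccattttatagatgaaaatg
Gaa, chr11:119267801-119267850, plus strand: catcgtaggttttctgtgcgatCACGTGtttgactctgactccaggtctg
Gla, chrX:134601172-134601254, minus strand: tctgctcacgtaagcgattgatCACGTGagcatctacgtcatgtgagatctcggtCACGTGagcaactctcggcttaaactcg

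*Lamp1* held 4 E-boxes in the stretch directly before its start site, beginning 61, 45, 28, and 15 bases upstream. *Mcoln1* held 2, at 71 and 45 bases, and *Gla* held 2, at 227 and 194 bases. *Dpp7*, *Lgmn*, and *Gaa* held 1 each, at 73, 49, and 140 bases. In the GENCODE M21 annotation the stretches of *Lamp1*, *Dpp7*, *Gaa*, and *Gla* lie upstream of the gene, 45 of the 76 bases of *Mcoln1* lie in an exon that starts earlier than in RefSeq, and that of *Lgmn* lies in an intron after an earlier start. The 6 were chosen for print from the members with the smallest p or the highest level, so their place among these is no finding.

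Genes of the same pathway outside the 46 members were followed in 7 lists of 123 genes, of which 113 were tested. None was called by edgeR, 14 were higher and 8 lower in WT at an unadjusted p of at most 0.05, beside 9.69% and 8.14% of all tested genes, and DESeq2 called 1 higher in WT, beside 2.87%. The shares at the unadjusted threshold are near those of all genes. Of 27 tested further hydrolases and cofactors, 17 had log2 fold changes above 0 (median 0.11). *Npc2*, the soluble cholesterol carrier of the lysosome, had 675, 624, and 556 normalized CPM in WT and 417, 401, and 437 in Ifnar1-/- libraries. The groups of *Npc2* were well apart (log2 fold change 0.56, SE 0.15), with an adjusted p of 0.0874 from edgeR and 0.00380 from DESeq2, at a fold change below 1.5.

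The 11 tested genes among further V-ATPase subunits and assembly factors had a median log2 fold change of -0.09. At an unadjusted p of at most 0.05 (edgeR), 1 was higher and 3 were lower in WT, beside 9.69% and 8.14% of all tested genes. *Tcirg1*, which encodes the a3 isoform of the V0 sector, had 365, 318, and 346 normalized CPM in WT and 237, 258, and 288 in Ifnar1-/- libraries. *Vma21*, an assembly chaperone of the pump, had 12.2, 17.6, and 16.6 in WT and 24.9, 20.0, and 22.1 in Ifnar1-/- libraries. The libraries of *Tcirg1* and *Vma21* were apart in opposite directions (log2 fold changes 0.40 and -0.54, adjusted p = 0.193 and 0.184). Of the 7 genes of this list that were not tested, *Atp6v0a4*, *Atp6v0e2*, *Atp6v1c2*, and *Atp6v1e2* had 0 counts in every library and the rest at most 8 counts in any library.

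In the 5 remaining lists the 2 genes with the smallest p were as follows. *Clcn7*, the lysosomal chloride-proton exchanger, and *Laptm5*, a lysosomal membrane protein of hematopoietic cells, had log2 fold changes of 0.62 and 0.57 (adjusted p = 0.200 and 0.217). *Gga1* and *Ap1g1*, adaptors that sort cargo from the trans-Golgi network, had 0.58 and -0.29 (adjusted p = 0.228 and 0.308). *Tfec*, the macrophage-enriched relative of TFEB, and *Lamtor5*, a subunit of the Ragulator complex that docks mTORC1 on lysosomes, were lower in every WT library than in any Ifnar1-/- library, with -0.47 and -0.58 (adjusted p = 0.148 and 0.152). *Plekhm1* and *Arl8a*, which tether and position lysosomes, had 0.61 and 0.44 (adjusted p = 0.121 and 0.139) and were higher in every WT library. The autophagy genes *Sqstm1*, a cargo receptor, and *Ulk1*, the initiating kinase, had 0.42 and 0.55 (adjusted p = 0.213 and 0.216).

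Some members share their locus with other genes. *Glb1* overlaps *Tmppe* on the same strand, and *Idua* overlaps *Slc26a1* and *Dgkq*, *Lamp1* overlaps *Grtp1*, *Ppt1* overlaps *Cap1*, and *Grn* overlaps *Fam171a2* on the opposite strand. The kit named in the labels marks strand, but the strand setting of the counting is not given in the sources used here, so reads of such pairs may be shared. Counts of the members were at least 47 in every library, the lowest being *Dpp7* in Ifnar1-/- replicates 1 and 3.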

How the data were processed

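RNA of sorted CNS monocytes was sequenced by the authors (75 bp, paired end). Per the submitters' processing notes, STAR 2.6.0c, RSEM 1.2.31, and GRCm38 were used. The deposited expected counts are RSEM estimates per gene, not normalized, and the deposited TPM were per effective length, with equal totals in all libraries by the authors' scaling. The labels and the study's methods name different library kits, and the deposited file names carry a further number, shared by the same-numbered libraries of both groups, that the labels do not explain. Libraries were grouped as labelled.

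Expected counts were rounded and WT was compared with Ifnar1-/- with edgeR 4.0.16 in R 4.3.3 (TMM, filterByExpr with a minimum count of 10, quasi-likelihood test, Benjamini-Hochberg over 11254 genes), tested first on simulated data. DESeq2 1.42.0 and limma 3.58.1 were alternatives. SEs were derived from the F statistic. Gene names and GC content came from GENCODE M21 (54165 of 54232 identifiers). With 3 libraries against 3, 3 counts correspond to 0.427 to 0.638 normalized CPM, for counting error only. TPM were used to choose the most abundant members and in 2 alternatives. The members and lists were chosen with earlier results of these data known. Library values are given for the 14 members with the smallest p, the 8 with the highest TPM, and the MiT/TFE factors; for the other pathway lists the 2 genes with the smallest p are named, except where a gene is not reported here.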

Additional observations from a re-analysis of the deposited data

How the results depend on the processing

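The number of members called higher in WT was 0 with edgeR and became 1 with DESeq2 (*Lgmn*), 1 with the replicate block in DESeq2 (*Lgmn*), and 3 without the filter on low counts (*Gaa*, *Grn*, and *Lgmn*), where 610 genes were called higher and 262 lower overall. It was 0 under the other alternatives, and the number called lower was 0 under all of them. Over all genes, 188 were called higher and 52 lower. These counts were 314 and 105 with DESeq2, 100 and 26 with TPM and a pseudocount of 1, 90 and 21 with TPM and a pseudocount of 0.1, and 28 lower with offsets for GC content and length. Leaving out 1 library at a time gave 110 (without Ifnar1-/- replicate 3) to 204 higher and 7 (without WT replicate 3 or Ifnar1-/- replicate 1) to 41 lower. The count of higher calls was 112 without Ifnar1-/- replicate 1. The count of lower calls was 26 without WT replicate 1, 25 without Ifnar1-/- replicate 2, and 10 without Ifnar1-/- replicate 3.

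The median log2 fold change of the V-ATPase genes turned from -0.05 to 0.05 with the offsets, and to 0.05 with the offsets and the replicate block, and ranged from -0.07 to 0.02 as libraries were left out. That of the other 32 genes stayed between 0.19 and 0.31 under the alternatives that kept all libraries and between 0.26 and 0.41 as libraries were left out. Among the named members and pathway genes, the sign changed in 5 of 646 comparisons. These were *Lamp2* (0.05 with the offsets, 0.05 with the offsets and the replicate block, and from -0.19 to 0.04 as libraries were left out, the latter without Ifnar1-/- replicate 1) and *Atp6v1e1* (0.13 with the offsets, with and without the replicate block). The cause was not tested. In 11 of the 646 a gene became called, among them *Lgmn*, *Gaa*, *Grn*, *Clcn7*, and *Plekhm1*, with DESeq2, the replicate block in DESeq2, or no filter.

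Same-numbered libraries correlated in their deviations from the group means by 0.0906, 0.0278, and 0.276. Differently numbered libraries correlated by -0.196 (WT replicate 1 with Ifnar1-/- replicate 3) to 0.0920 (WT replicate 1 with Ifnar1-/- replicate 2). The correlations do not settle whether the same numbers are pairs, and the labels do not state it. The main fit therefore used no pairs. With the replicate block, edgeR called 182 genes higher and 38 lower and 0 members. Restriction to protein-coding genes, an alternative chosen after seeing the data, gave 187 and 39 genes and 0 members. Leaving out a library of 3 leaves 2 in its group, so these fits have less power by construction.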
